A study of Mus musculus with 24 samples.

Results

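The collagens and lysyl oxidases of mouse liver were followed here on 24 Affymetrix 3' arrays, through ischemia of part of the liver in young and adult mice. The family was defined by gene symbol alone, as every collagen chain gene and the lysyl oxidase genes Lox, Loxl1, Loxl2, Loxl3 and Loxl4 that a probe set of the arrays represents. It held 40 genes, 35 collagen chains and 5 lysyl oxidases, of 14351 genes measured. They were read by 41 of 26180 probe sets, Col25a1 alone having more than 1. A further 9 family genes had no matched probe set and were not analysed here (Col6a3, Col6a4, Col6a5, Col6a6, Col12a1, Col20a1, Col22a1, Col27a1 and Col28a1).

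The 8 groups had 3 arrays each. Young mice of 4-5 weeks and adult mice of 12-14 months had either a sham operation or partial hepatic ischemia lasting 30, 60 or 90 min, and total RNA came from their median and left liver lobes. The labels used here give no strain, sex or genotype and name no reperfusion period. Each ischemia title holds a second figure after the minutes and a slash, the same in all of these titles. That figure may mean that no reperfusion followed, but the labels used here do not explain it. The labels also do not say whether the 3 arrays of a group are separate animals. Where they are not, the p-values measure only the spread between these arrays. Each value is a ratio, scaled within an age so that its 3 sham values average 1. Levels of sham livers of both ages cannot be compared, and a ratio does not tell a bright probe set from one near background, so neither the detection of a member nor the tissue label could be checked against levels. No filter on low values was possible, and all 40 members stayed in.

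Collagens are secreted as chains wound into triple helices. Fibrillar collagens form the tensile fibres of connective tissue, network collagens build basement membranes and related sheets, and FACIT collagens (fibril-associated collagens with interrupted triple helices) sit on the surface of fibrils. Lysyl oxidases are copper-dependent enzymes that oxidise lysine residues of collagen and elastin, which lets the chains cross-link. In liver, stellate cells, portal fibroblasts and vascular smooth muscle are known producers of fibrillar collagen, and endothelial cells contribute basement membrane chains.

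In adult livers most members lay slightly above sham at every ischemia time, and few passed the test. The median log2 fold change over the 40 members was 0.11 at 30 min, 0.13 at 60 min and 0.16 at 90 min, and 33, 30 and 35 of the 40 lay above 0. In young livers the medians were 0.02, 0.01 and -0.05, with 22, 22 and 15 members above 0. Of all genes, 56.6%, 55.3% and 57.6% lay below 0 in young livers and 57.0%, 58.7% and 56.5% in adult livers at 30, 60 and 90 min. Over all genes the medians were -0.02, -0.02 and -0.02 in young and -0.03, -0.05 and -0.04 in adult livers. These fits were made in limma on log2 ratios, a call needing an adjusted p under 0.05 (Benjamini-Hochberg over all genes, two-sided). At 60 min in adults Col9a1 and Col5a1 rose, 2 of 40 members, where 2.15% of all genes were called higher. At 90 min in adults Col6a2 and Loxl1 rose, again 2 of 40, against 1.17% of all genes called higher. No member was called lower in adults at 60 min, where 9.78% of all genes were, or at 90 min, where 6.28% were.

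No member was called in young livers or in adults at 30 min. All genes were scarcely called there either, at 0.0557%, 0.0279% and 0.181% for young 30, 60 and 90 min and 0.00% for adult 30 min. At an unadjusted p under 0.05 in limma, 1 member was higher at 30 min in young livers, where 2.29% of all genes were. At 60 min 2 were higher and 2 lower, beside 3.80% and 6.64% of all genes, and at 90 min again 2 and 2, beside 3.41% and 5.60%. At that threshold 3 members passed in adults at 30 min, all higher, where 3.73% of all genes were higher. In adults at 60 min 7 members passed it, all higher, where 8.45% of all genes were higher. At 90 min in adults 10 were higher and 2 lower, where 8.29% and 20.3% of all genes were. The share of all genes lower at that threshold is not given here for 30 min in either age or for adults at 60 min. Members whose 3 ischemia arrays all lay above the 3 sham arrays numbered 5, 11 and 14 in adults at 30, 60 and 90 min, beside 5.17%, 11.1% and 12.8% of all genes. In young livers such members numbered 2, 3 and 1, beside 5.31%, 5.54% and 4.45% of all genes. Members with all 3 ischemia arrays below sham numbered 2, 1 and 5 in young livers, beside 9.49%, 7.78% and 9.50% of all genes, and 0, 0 and 1 in adults, beside 6.29%, 25.9% and 26.4%. The 3 adult comparisons share their sham arrays, as do the 3 young ones, so they are not independent of each other.

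**Figure D1:**
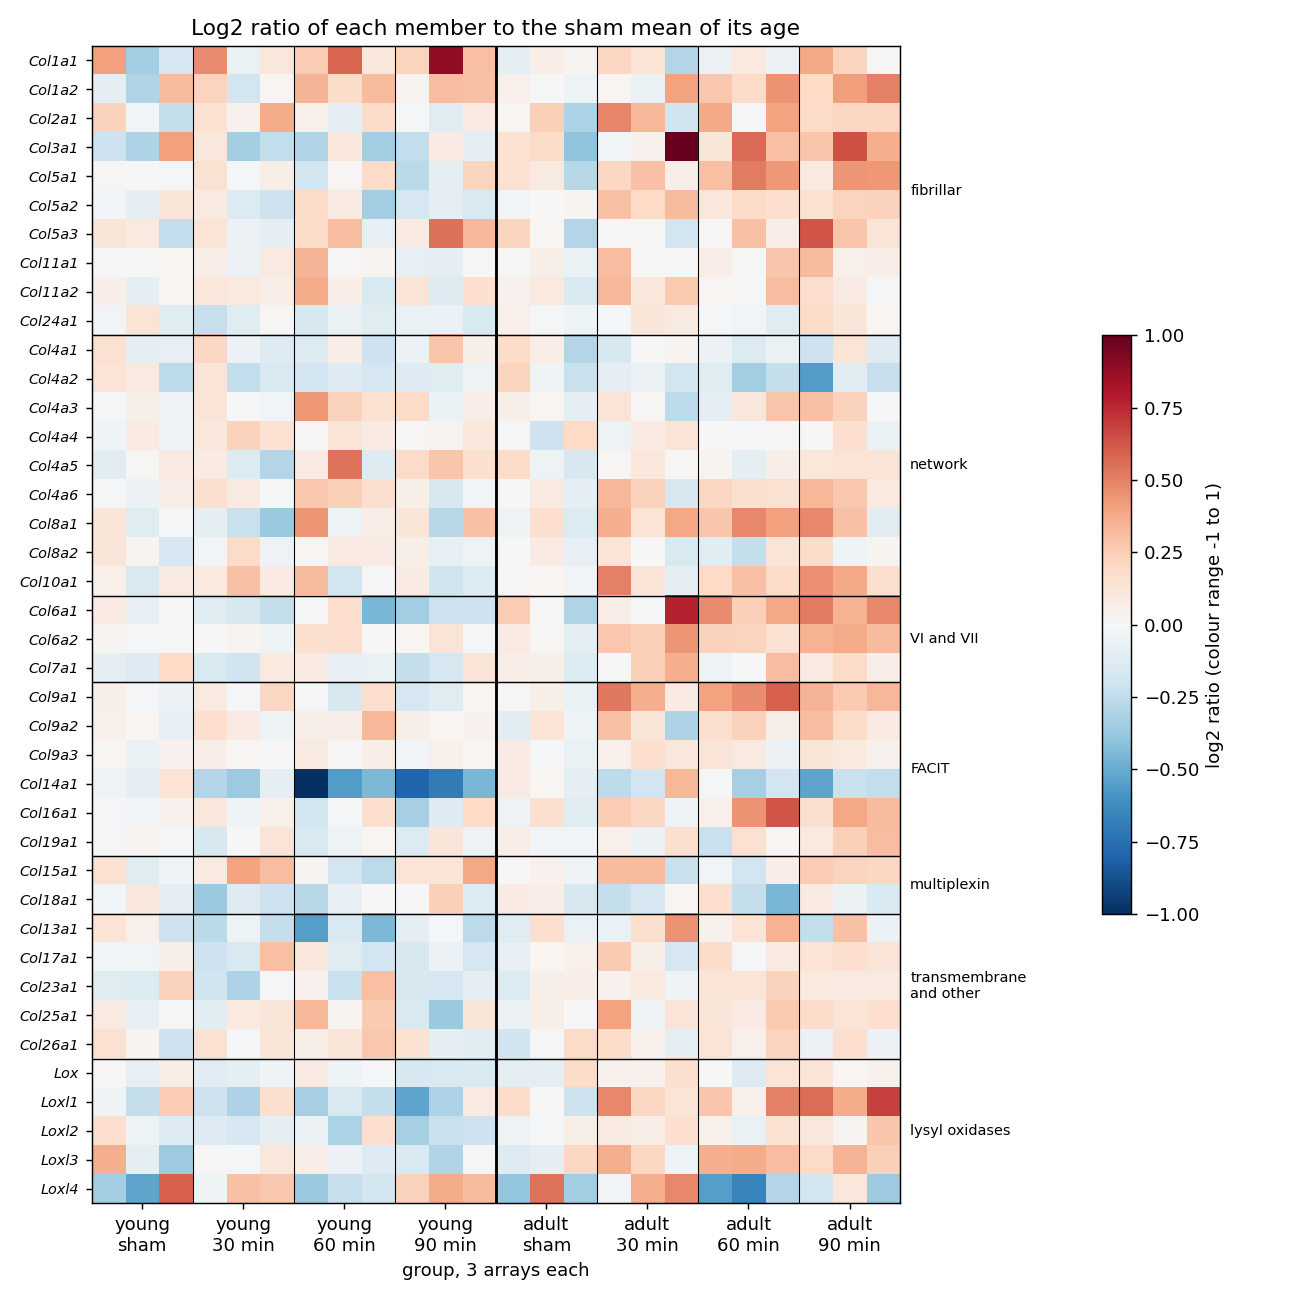
Log2 ratio of each of the 40 members (rows, by class) on each of the 24 arrays (columns, 3 per group), with red above and blue below the sham mean of the age and colours stopping at -1 and 1. The adult ischemia columns are pale red over most rows, Col14a1 is blue in young livers at 60 and 90 min, and the dark cell of Col3a1 is 1 array of adult 30 min, at a ratio of 2.17.

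The adult shift could be seen on each array. The mean log2 ratio over the 40 members was 0.10 to 0.15 on the adult 30 min arrays, 0.08 to 0.17 at 60 min and 0.12 to 0.20 at 90 min, against -0.09 to 0.05 on adult sham arrays. On all 12 young arrays it lay between -0.08 and 0.04. The same quantity was taken over 38 olfactory receptor genes, a family best known for sensing odours. For these genes it was -0.05 to 0.15, 0.05 to 0.18 and 0.08 to 0.09 on the adult ischemia arrays and -0.02 to 0.01 on adult sham. Their median log2 fold change in adults was 0.04 at 30 min, 0.11 at 60 min and 0.09 at 90 min, so at 60 min it lay close to that of the collagens and lysyl oxidases. The part that a shift of this kind plays in the members' medians was not tested.

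**Figure D2:**
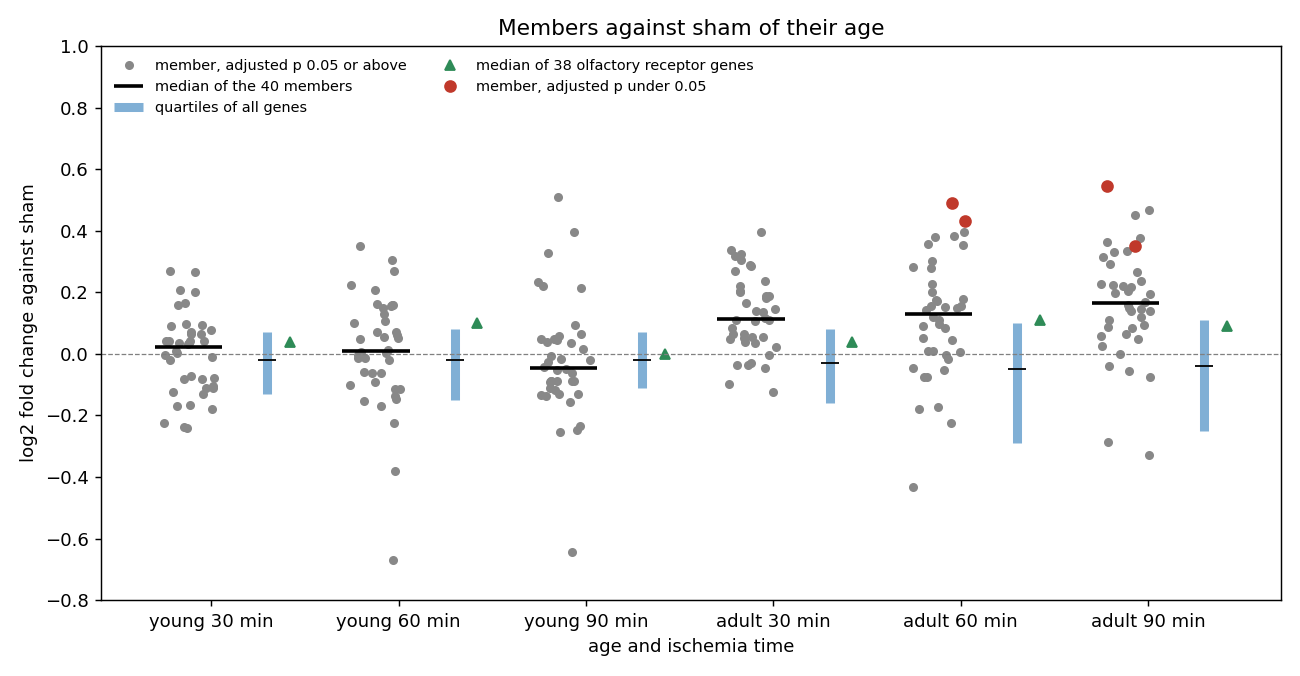
Log2 fold change against sham of the same age for the 40 members (points, red where the adjusted p is under 0.05), with their median (black bar), the quartiles and median of all 14351 genes (blue bar with tick) and the median of 38 olfactory receptor genes (triangle). The 4 red points lie in adults at 60 and 90 min, and the members' medians reach 0.11, 0.13 and 0.16 in adults.

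The fibrillar collagens had 10 measured members. Their median log2 fold change in adults was 0.16 at 30 min, 0.15 at 60 min and 0.21 at 90 min, and all 10 lay above 0 at 90 min, though none was called at that time. In young livers the medians were 0.04, 0.08 and -0.03. Of the 10, only Col5a1 at 60 min in adults was called.

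Col5a1 encodes a chain of collagen V, which joins collagen I in fibrils and is known to govern their start and width. Its ratios were 1.11, 1.07 and 0.823 on the adult sham arrays and 1.24, 1.44 and 1.34 after 60 min. The 60 min arrays were all above sham, and the third sham array stood low. Col5a1 rose by 0.43 ± 0.13 on the log2 scale (SE, n = 3 per group, limma adjusted p = 0.0417). At 90 min the ratios were 1.06, 1.36 and 1.35, the first overlapping sham, with a log2 fold change of 0.33 ± 0.13 (limma adjusted p = 0.110). In young livers Col5a1 lay between 0.827 and 1.16 on all arrays. The call at 60 min was lost without the first, the second or the third adult sham array (log2 fold changes 0.51, 0.48 and 0.30, limma adjusted p = 0.0657, 0.0564 and 0.178). It was also lost without the second or the third 60 min array (0.38 and 0.43, adjusted p = 0.111 and 0.148), with adult arrays alone (adjusted p = 0.0648) and after quantile normalization (0.38, adjusted p = 0.498). Arrays of the other groups feed only the shared estimate of spread, and leaving these out one at a time was added after seeing the data. Among those 18 arrays the call was lost without the second young sham array (adjusted p = 0.0502), and over all alternatives of both kinds the adjusted p ran from 0.0295 to 0.498. Between the 60 min and sham arrays that share the first part of the code in their titles, the 3 log2 differences were 0.15, 0.43 and 0.71.

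Collagen I, the main fibre of scar and capsule, is built from Col1a1 and Col1a2. Col1a1 ratios in young livers were 1.33, 0.782 and 0.886 at sham and 1.17, 1.85 and 1.23 after 90 min, which overlap. The log2 fold change was 0.51 ± 0.20 (limma adjusted p = 0.382), the highest of any member in young livers at 90 min. In adults Col1a1 had log2 fold changes of 0.02, -0.00 and 0.21 at the 3 times, each with an SE of 0.20. Col1a2 in adults had ratios of 1.04, 0.998 and 0.965 at sham, 1.20, 1.14 and 1.36 at 60 min and 1.15, 1.34 and 1.42 at 90 min, both times clear of sham. Its log2 fold changes were 0.30 ± 0.15 and 0.38 ± 0.15 (limma adjusted p = 0.156 and 0.103). On adult arrays at 60 and 90 min Col1a2 was thus separated from sham and Col1a1 was not. Neither was called, and a difference between the chains was not tested. In young livers Col1a2 had mean ratios of 1.22 at 60 min (range 1.13 to 1.27) and 1.16 at 90 min (1.02 to 1.24). Both times overlapped its young sham arrays, which ran from 0.811 to 1.25.

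Col3a1 encodes collagen III, which accompanies collagen I in soft tissue. Its adult ratios were 1.11, 1.13 and 0.756 at sham and 0.977, 1.03 and 2.17 at 30 min, so 1 array carried the mean of 1.39 ± 0.672 (SD, n = 3). At 60 min they were 1.09, 1.48 and 1.23, and at 90 min 1.21, 1.56 and 1.28, the latter all above sham. The log2 fold changes were 0.40, 0.35 and 0.45, each ± 0.25 (limma adjusted p = 0.541, 0.331 and 0.236). Col3a1 had the widest error of the family. Col5a2, a partner chain of Col5a1 whose gene lies 24.6 kb from Col3a1 on chromosome 1 (GRCm38), kept its adult ischemia arrays above sham at all 3 times. Its log2 fold changes there were 0.27, 0.16 and 0.20, each ± 0.11 (limma adjusted p = 0.462, 0.322 and 0.227). Col11a2, a chain of the cartilage-type collagen XI, was separated from sham at 30 min in both ages, at 0.10 ± 0.12 in young and 0.24 ± 0.12 in adult livers (limma adjusted p = 0.854 and 0.495).

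**Figure D3:**
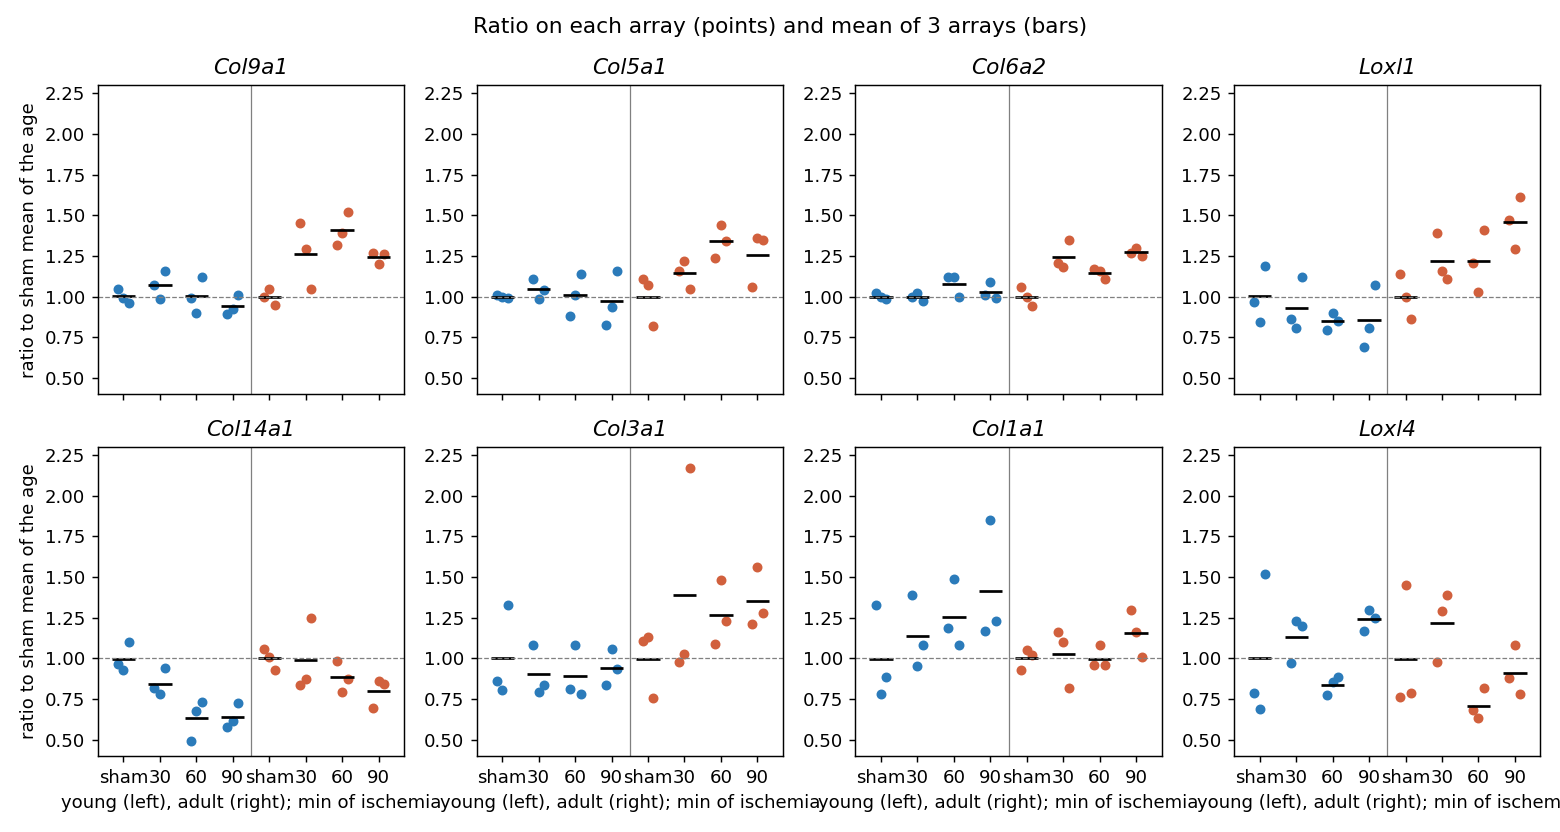
Ratio to the sham mean of the age on each array (points, blue young and orange adult) and the mean of 3 arrays (bars) for 8 members, by minutes of ischemia. Col9a1, Col5a1, Col6a2 and Loxl1 lie above 1 on adult ischemia arrays, at 1.03 or more, Col14a1 lies below 0.75 on young arrays at 60 and 90 min, and Loxl4 scatters from 0.693 to 1.52 among young sham arrays.

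The collagen VI and VII class had 3 measured members, the collagen VI chains Col6a1 and Col6a2 and the anchoring fibril gene Col7a1. Collagen VI forms beaded microfilaments that link cells and basement membranes to fibrils. Its 2 genes lie 85.2 kb apart on chromosome 10. All 3 members were above 0 at every adult time, with medians of 0.29, 0.20 and 0.35, and the young medians were -0.07, -0.01 and -0.09.

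Col6a2 ratios in adults were 1.06, 1.00 and 0.940 at sham and 1.27, 1.30 and 1.25 after 90 min. The arrays of each group lay close together and the groups did not overlap. Col6a2 rose by 0.35 ± 0.07 (SE, n = 3 per group, limma adjusted p = 0.0177), the smallest adjusted p of any member in that comparison. The ratios were also above sham at 30 min, at 1.21, 1.18 and 1.35 (0.32 ± 0.07, adjusted p = 0.411), and at 60 min, at 1.17, 1.16 and 1.11 (0.20 ± 0.07, adjusted p = 0.0699). The 60 min value was called once arrays were centred on their median (0.26, limma adjusted p = 0.0375) and without the third adult 30 min array, outside the comparison (adjusted p = 0.0470), over a range of 0.0375 to 0.498. The 90 min call was lost without the third adult sham array (0.31, limma adjusted p = 0.103) and without the first or second 90 min array (0.35 and 0.34, adjusted p = 0.0666 and 0.0566). It was also lost with adult arrays alone (adjusted p = 0.0584) and after quantile normalization (0.33, adjusted p = 0.372), over a range of 0.00592 to 0.372, and it held without each of the 18 arrays outside the comparison. Within shared title codes the 90 min differences were 0.34 and 0.44. In young livers Col6a2 kept to 0.972 to 1.12 on all arrays.

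Col6a1 ratios in adults were 1.19, 1.00 and 0.810 at sham, 1.38, 1.18 and 1.31 at 60 min and 1.43, 1.27 and 1.39 at 90 min. The 90 min arrays were all above sham, and 1 array of 60 min lay just inside it. The log2 fold changes were 0.38 ± 0.17 and 0.47 ± 0.17 (limma adjusted p = 0.127 and 0.0897). The 90 min value was called only without the third adult 30 min array, outside the comparison (adjusted p = 0.0296, over a range of 0.0296 to 0.465). At 30 min the third array stood alone at 1.70 beside 1.05 and 0.984, the same array that was high for Col3a1. In young livers Col6a1 had all 3 arrays below sham at 30 and at 90 min, with log2 fold changes of -0.17 ± 0.17 and -0.25 ± 0.17 (limma adjusted p = 0.811 and 0.749).

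The FACIT class had 6 measured members and held both the largest adult value at 60 min and the lowest young values. Col9a1 encodes a chain of collagen IX, best known from the surface of cartilage fibrils. Its adult ratios were 1.00, 1.05 and 0.950 at sham and 1.32, 1.39 and 1.52 after 60 min, well apart. Col9a1 rose by 0.49 ± 0.10 (SE, n = 3 per group, limma adjusted p = 0.0282). At 30 min the ratios were 1.45, 1.29 and 1.05 (0.33 ± 0.10, adjusted p = 0.411) and at 90 min 1.27, 1.20 and 1.26 (0.31 ± 0.10, adjusted p = 0.0679). Young arrays ran from 0.891 to 1.16. The 60 min call was lost without the first or the third adult sham array (0.49 and 0.45, limma adjusted p = 0.0633 and 0.0965) and without the second or the third 60 min array (0.50 and 0.43, adjusted p = 0.0576 and 0.121). It was lost after quantile normalization as well (0.43, adjusted p = 0.498), over a range of 0.00647 to 0.498, and it held without each of the 18 arrays outside the comparison. Within shared title codes the 60 min differences were 0.39, 0.41 and 0.68. At 30 min, leaving out the third array gave a call, at 0.45 (limma adjusted p = 0.0490, with a range of 0.0490 to 0.9997 over its alternatives). The 90 min value was called without the first or the third adult 30 min array, both outside that comparison (adjusted p = 0.0473 and 0.0302, over a range of 0.0302 to 0.436). The other collagen IX chains, Col9a2 and Col9a3, were not called in any comparison.

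Col14a1 encodes collagen XIV, a FACIT collagen known to regulate fibril growth. Its ratios in young livers were 0.965, 0.930 and 1.10 at sham, 0.494, 0.679 and 0.734 at 60 min and 0.579, 0.617 and 0.727 at 90 min. All 6 of these ischemia arrays lay below all sham arrays. The log2 fold changes were -0.67 ± 0.15 and -0.64 ± 0.15, the lowest of any member in either comparison, yet neither was called (limma adjusted p = 0.111 and 0.0953). Over their alternatives the adjusted p ran from 0.0538 to 0.633 at 60 min and from 0.0416 to 0.417 at 90 min, the 90 min value being called only without the third adult 30 min array, which is outside the comparison. At 30 min the value was -0.24 ± 0.15. Within shared title codes the differences were -0.51 and -0.34 at 60 min and -0.64 and -0.36 at 90 min. In adults the 90 min ratios of 0.695, 0.861 and 0.841 also lay below the sham values of 1.06, 1.01 and 0.930, at -0.33 ± 0.15 (limma adjusted p = 0.165). The young and adult values of Col14a1 were not shown to differ, the adult minus young difference being 0.49 ± 0.22 at 60 min and 0.32 ± 0.22 at 90 min (limma adjusted p = 0.704 and 0.541).

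The network and basement membrane class had 9 measured members, 6 of them chains of collagen IV. Their median in adults was 0.05, 0.01 and 0.14 at the 3 times, nearer to that of all genes than the classes above. The genes of the main basement membrane chains, Col4a1 and Col4a2, start head to head on chromosome 8, and the gene models overlap at their starts. Their promoter windows, 250 bases before to 50 after each start in RefSeq's GRCm38.p6 annotation, share 78 bases at chr8:11312777-11312854. They are shown because a pair of genes read from 1 start region can be compared chain by chain. Col4a1 is given from chr8:11312777-11313076 on the minus strand and Col4a2 from chr8:11312555-11312854 on the plus strand, with the shared bases in capitals.
Col4a1: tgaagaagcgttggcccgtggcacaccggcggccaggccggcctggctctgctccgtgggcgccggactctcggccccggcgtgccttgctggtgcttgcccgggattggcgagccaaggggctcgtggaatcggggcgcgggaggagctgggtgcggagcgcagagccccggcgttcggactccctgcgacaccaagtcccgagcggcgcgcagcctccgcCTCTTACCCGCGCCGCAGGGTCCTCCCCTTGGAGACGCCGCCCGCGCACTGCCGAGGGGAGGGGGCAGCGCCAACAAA
Col4a2: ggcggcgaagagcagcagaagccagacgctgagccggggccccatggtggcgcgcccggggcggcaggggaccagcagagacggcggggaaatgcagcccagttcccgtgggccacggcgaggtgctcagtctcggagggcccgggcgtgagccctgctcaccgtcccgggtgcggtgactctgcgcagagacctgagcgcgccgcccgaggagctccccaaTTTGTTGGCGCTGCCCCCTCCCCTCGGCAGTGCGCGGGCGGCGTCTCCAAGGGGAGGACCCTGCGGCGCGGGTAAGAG

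Col4a1 in adults had ratios of 1.14, 1.05 and 0.817 at sham and 0.867, 1.10 and 0.911 at 90 min, within the sham spread. Its log2 fold changes in adults were -0.03, -0.08 and -0.05, each ± 0.13. Col4a2 had ratios of 1.17, 0.973 and 0.859 at sham and 0.677, 0.930 and 0.855 at 90 min, with values of -0.10, -0.23 and -0.29, each ± 0.13 (limma adjusted p = 0.764, 0.230 and 0.153). Both chains were among the 5 of 40 members below 0 in adults at 90 min, and neither was called. Of the minor chains, Col4a6 had all 3 arrays above sham in adults at 60 and 90 min (0.18 and 0.24, each ± 0.10) and in young livers at 60 min (0.22 ± 0.10). Col4a3 was also separated at 60 min in young livers (0.27 ± 0.11), Col4a4 at 30 min (0.16 ± 0.09) and Col4a5 at 90 min (0.21 ± 0.13), none of them called. Col8a1, a short-chain collagen of vessel walls, had adult ratios of 0.966, 1.13 and 0.907 at sham and 1.21, 1.39 and 1.33 at 60 min, clear of sham, at 0.40 ± 0.16 (limma adjusted p = 0.0876). Col10a1, known from growth plate cartilage, had 1.01, 1.01 and 0.980 at sham and 1.37, 1.31 and 1.12 at 90 min, at 0.34 ± 0.13 (limma adjusted p = 0.112).

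The multiplexins Col15a1 and Col18a1 sit in basement membranes and carry the fragments restin and endostatin. Col15a1 in young livers had ratios of 1.06, 1.32 and 1.24 at 30 min, 1.02, 0.875 and 0.837 at 60 min and 1.10, 1.10 and 1.31 at 90 min, so the middle time lay lowest. The 60 min against 30 min difference was -0.41 ± 0.13 and the 90 min against 60 min difference was 0.36 ± 0.13 (limma adjusted p = 0.883 and 0.449). In adults Col15a1 was clear of sham at 90 min, at 1.19, 1.17 and 1.15 (0.23 ± 0.13, limma adjusted p = 0.241). Col18a1 had log2 fold changes of -0.24, -0.11 and 0.04 in young livers and -0.13, -0.17 and -0.04 in adults, each ± 0.14. The 5 transmembrane and other collagens had adult medians of 0.05, 0.15 and 0.09, and all 5 were at or above 0 at each adult time, with none called. In that class Col17a1, a hemidesmosome collagen, lay below sham on all 3 young 90 min arrays (-0.13 ± 0.12).

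Among the lysyl oxidases, Loxl1, known for its part in elastic fibre assembly, showed the highest adult value of the whole family. Its adult ratios were 1.14, 0.998 and 0.865 at sham and 1.47, 1.29 and 1.61 after 90 min, without overlap. Loxl1 rose by 0.55 ± 0.17 (SE, n = 3 per group, limma adjusted p = 0.0484). At 30 min the ratios were 1.39, 1.16 and 1.11 and at 60 min 1.21, 1.03 and 1.41, partly inside the sham range (0.29 and 0.28, each ± 0.17, adjusted p = 0.521 and 0.237). In young livers they were 0.970, 0.844 and 1.19 at sham and 0.694, 0.805 and 1.07 at 90 min, overlapping, at -0.23 ± 0.17 (limma adjusted p = 0.770). The adult 90 min call stood close to the threshold and was lost without any 1 of the 6 arrays compared (log2 fold changes 0.45 to 0.64, limma adjusted p = 0.0617 to 0.199). It was lost with adult arrays alone (adjusted p = 0.0631) and after quantile normalization (0.53, adjusted p = 0.426). Of the 18 arrays outside the comparison, leaving out 1 at a time lost the call for 11, among them the first and the second young sham arrays, and over all alternatives the adjusted p ran from 0.0358 to 0.426. Without the third adult sham array the value was 0.45, and within shared title codes the differences were 0.56 and 0.74.

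The other lysyl oxidases were not called in any comparison. Lox, the founding member, stayed within 0.892 to 1.13 on all 24 arrays, with young 90 min ratios of 0.892, 0.901 and 0.899 just below sham (-0.16 ± 0.08, limma adjusted p = 0.618). Loxl2, which acts on collagen IV, was below sham on all 3 young 90 min arrays (-0.25 ± 0.11, limma adjusted p = 0.463) and above it on all 3 adult 30 min arrays (0.11 ± 0.11, adjusted p = 0.676). Loxl3 in adults had 0.911, 0.934 and 1.16 at sham and 1.28, 1.30 and 1.24 at 60 min, all higher, at 0.36 ± 0.14 (limma adjusted p = 0.0841). It was called without the first or the third young sham array, both outside the comparison (adjusted p = 0.0435 and 0.0488, over a range of 0.0435 to 0.531). Loxl4 was the noisiest enzyme, with sham ratios of 0.791, 0.693 and 1.52 in young and 0.761, 1.45 and 0.787 in adult livers. In adults its ratios were 0.979, 1.29 and 1.39 at 30 min and 0.685, 0.633 and 0.816 at 60 min, which do not overlap, with a 60 min against 30 min difference of -0.77 ± 0.24 (limma adjusted p = 0.563). In young livers the 90 min against 60 min difference was 0.56 ± 0.24 (adjusted p = 0.503).

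Later ischemia times were also compared with earlier ones directly. In all 4 such comparisons (60 against 30 min and 90 against 60 min, in each age) limma called 0 members and 0.00% of all genes, and 5.16% and 9.33% of genes in young and 8.78% and 3.19% in adults had an unadjusted p under 0.05. Among the members, 2 were higher and 2 lower at that threshold in each young comparison, 1 was lower in adults at 60 against 30 min (Loxl4) and 2 were higher at 90 against 60 min. No order of the members over time was shown within an age.

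Young and adult arrays share no first part of the title code, so age and that code part cannot be told apart. With that limit, whether the ages differed was tested as the adult change minus the young change. The median over the 40 members was 0.11 at 30 min, 0.05 at 60 min and 0.21 at 90 min, against -0.00, -0.05 and -0.02 over all genes, and 30, 24 and 33 members lay above 0. With 1 array left out the medians ran from 0.06 to 0.15, from 0.02 to 0.10 and from 0.16 to 0.24. The low at 30 min came without the third adult sham array, the low at 60 min without the first young sham array, and the 60 min high without the first young 60 min array. In limma 0 members were called at any time, and 0.00% of all genes. At an unadjusted p under 0.05, 3, 5 and 7 members were higher and 0 lower, where 1.25%, 2.24% and 4.20% of all genes were higher. The share of all genes lower at that threshold is not given here, so the 0 cannot be weighed against it. The largest differences at 90 min were those of Loxl1 (0.78 ± 0.23, 95% interval 0.29 to 1.27, limma adjusted p = 0.404) and Col6a1 (0.72 ± 0.24, interval 0.21 to 1.22, adjusted p = 0.419). Col3a1 followed at 0.50 ± 0.35, and Loxl4 was the lowest at -0.47 ± 0.34. With 1 array left out Loxl4 ran from -0.82 (without the third young sham array) to -0.17 (without the second adult sham array), and Col3a1 from 0.28 (without the third young sham array) to 0.64. At 60 min the largest were Col13a1 (0.56 ± 0.21), Loxl1 (0.51 ± 0.23), Col3a1 (0.50 ± 0.35) and Col14a1 (0.49 ± 0.22). At 30 min they were Col8a1 (0.53 ± 0.22), Col3a1 (0.52 ± 0.35), Col6a1 (0.46 ± 0.24) and Loxl1 (0.39 ± 0.23). At 30 min, without the third adult 30 min array, the values of Col3a1 and Col6a1 dropped to 0.15 and 0.21.

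**Figure D4:**
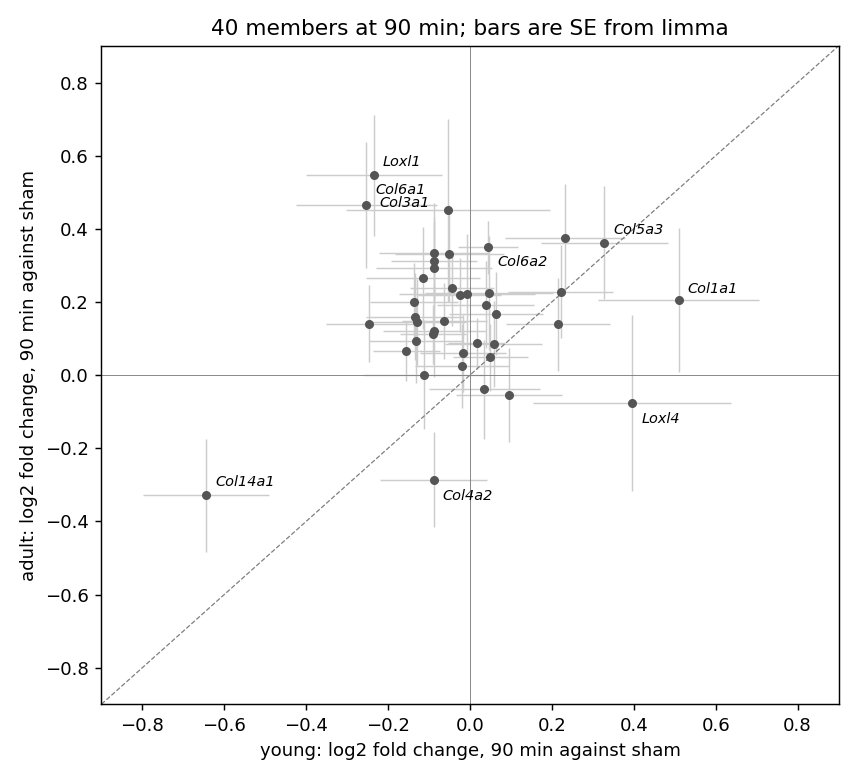
Log2 fold change at 90 min against sham in adult livers (vertical) and young livers (horizontal) for the 40 members, with standard errors from limma and the line of equal change dashed. Most points lie above the line, Loxl1 and Col6a1 farthest from it at differences of 0.78 and 0.72, and no difference between the ages passed the test.

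The precision was similar for most members. The SE of a comparison with sham was 0.07 to 0.25 with a median of 0.13, and the 95% interval lay within a 2-fold change in either direction for all 40 members in each of the 6 comparisons. It lay within a 1.5-fold change for 37, 34 and 35 members in young and 35, 29 and 30 in adult livers. For the differences between ages, the interval reached beyond 2-fold for Col3a1 at each time and also for Col6a1, Loxl1 and Loxl4 at 90 min.

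Cell type markers moved beside these values. Of 14 hepatic stellate cell markers, all were below 0 in young livers at 60 min (median -0.24, none called) and 12 at 90 min (median -0.25), where Colec11, Rgs5, Reln, Ecm1 and Pdgfra fell. Their mean log2 ratio was -0.48 to -0.27 and -0.46 to -0.35 on those arrays, against -0.12 to 0.13 on young sham. Col14a1 was lowest at the same 2 times. Col1a1 and Col1a2 had mean ratios above 1 there (1.25 and 1.22 at 60 min, 1.42 and 1.16 at 90 min). Col3a1 lay below 1 (0.891 and 0.944), and all 3 of these genes overlapped sham. In adults at 90 min the median of the stellate markers was -0.05, Rgs5 and Colec11 fell, and the array means were -0.30 to -0.05 against -0.08 to 0.05 at sham. Of 10 portal fibroblast and smooth muscle markers, 9, 9 and 8 were above 0 in adults at 30, 60 and 90 min, with medians of 0.14, 0.14 and 0.24, and the contractile gene Cnn1 rose at 90 min (0.50 ± 0.12, limma adjusted p = 0.0234). Their array means were 0.12 to 0.17, 0.13 to 0.15 and 0.06 to 0.35, against -0.09 to 0.08 on adult sham. In young livers at 90 min Mustn1 of that list fell and the median was -0.09. The endothelial markers (12) had medians of -0.14, -0.27 and -0.31 in adults and -0.20, -0.25 and -0.21 in young livers. In adults at 90 min 11 of 12 Kupffer cell markers fell (median -1.23), where 6.28% of all genes were called lower. The Kupffer array means were -1.72 to -1.07 there, against a wide -0.50 to 0.50 on adult sham. The 10 measured hepatocyte markers had an adult median of -0.32 at 60 min and the 7 cholangiocyte markers one of -0.01. The marker calls were not followed one by one through the alternatives run for the members. After quantile normalization 3 of all genes were called in adults at 90 min. The part of these cell types in the members' values was not tested. In bulk tissue, fewer cells of a type and less RNA per cell cannot be told apart.

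**Figure D5:**
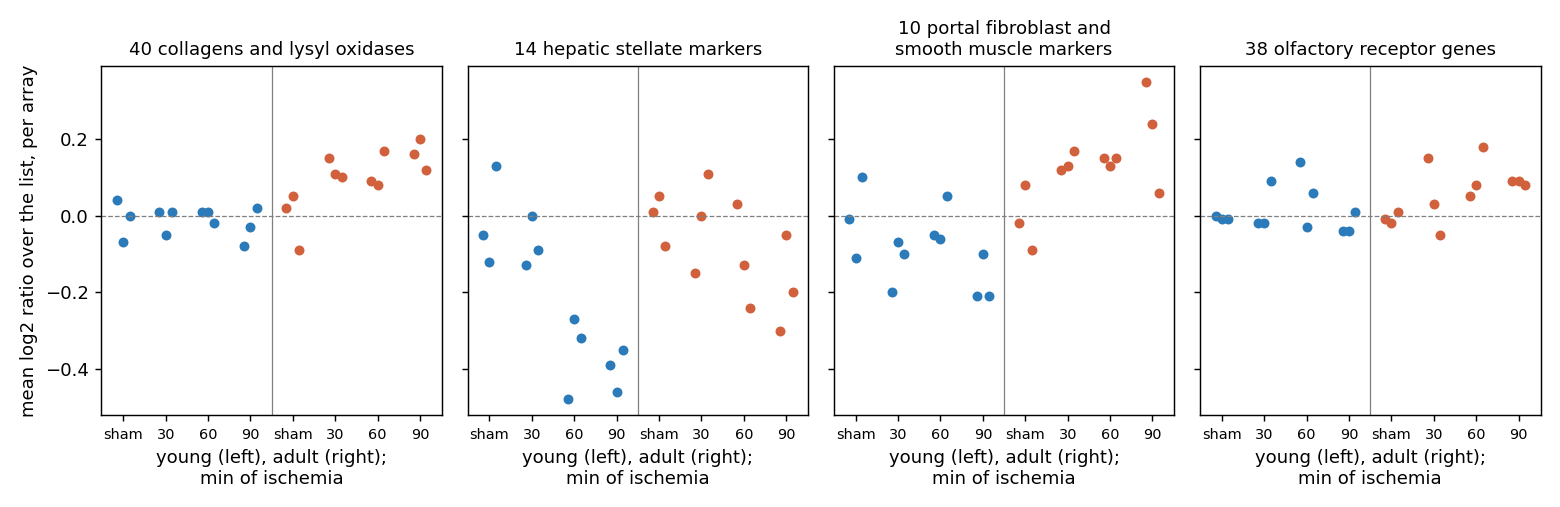
Mean log2 ratio over each of 4 gene lists on each array (points, 3 per group, blue young and orange adult). The 40 collagens and lysyl oxidases reach 0.12 to 0.20 in adults at 90 min, stellate markers lie at -0.48 to -0.27 in young livers at 60 min, portal fibroblast and smooth muscle markers at 0.06 to 0.35 in adults at 90 min, and olfactory receptor genes at 0.08 to 0.09 there.

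Among the genes that make, cut and bind collagen, at most 2 genes of a list were called at a time, where 2.15% of all genes were called higher and 9.78% lower in adults at 60 min, and 1.17% and 6.28% at 90 min. Of 23 measured genes of collagen synthesis and processing, Adamts2, the protease that removes the amino-terminal propeptide of fibrillar procollagens, rose in adults at 60 and 90 min (0.51 ± 0.11 and 0.50 ± 0.11, limma adjusted p = 0.0282 and 0.0211). P3h1, a prolyl 3-hydroxylase, fell at 60 min (-0.42 ± 0.14, adjusted p = 0.0471), and Colgalt1, which adds galactose to hydroxylysine, fell at 90 min (-0.33 ± 0.09, adjusted p = 0.0318). The list's adult medians were -0.02, -0.02 and -0.03. Of 13 genes of collagen breakdown, Mmp2, a gelatinase, rose in adults at 90 min (0.41 ± 0.10, limma adjusted p = 0.0268), where 10 of 13 lay above 0. Of 16 elastic fibre genes, 14 lay above 0 in adults at 90 min (median 0.13), and Fbln5, a tether for elastin and Loxl1, and the microfibril protein gene Mfap4 rose (0.51 ± 0.11 and 0.54 ± 0.15, adjusted p = 0.0174 and 0.0378). Of 7 collagen receptors Lair1, an inhibitory receptor of leukocytes, fell at 90 min (-0.29 ± 0.09, adjusted p = 0.0495), and of 12 basement membrane partners Nid2 fell at 60 min (-0.54 ± 0.16, adjusted p = 0.0394). No gene of these 5 lists was called in young livers or in adults at 30 min. The calls of these lists were not followed one by one through the alternatives run for the members. After quantile normalization 0 of all genes were called in adults at 60 min, so none of the 60 min calls held there, and 3 of all genes at 90 min.

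Promoter sequence was available in RefSeq (GRCm38.p6) for 29 of the 40 members, as 32 windows of 300 bases. The windows of the called members Col5a1, Col6a2 and Col9a1 are printed here, as those called members for which a window was at hand. Capitals mark, on either strand, ACGTG and GCGTG, the core letters bound by hypoxia-inducible factors, and GGGCGG, the GC box of Sp1. The windows are Col5a1 at chr2:27886175-27886474 (plus strand), Col6a2 at chr10:76623581-76623880 (minus strand) and Col9a1 at chr1:24177360-24177659 (plus strand).
Col5a1: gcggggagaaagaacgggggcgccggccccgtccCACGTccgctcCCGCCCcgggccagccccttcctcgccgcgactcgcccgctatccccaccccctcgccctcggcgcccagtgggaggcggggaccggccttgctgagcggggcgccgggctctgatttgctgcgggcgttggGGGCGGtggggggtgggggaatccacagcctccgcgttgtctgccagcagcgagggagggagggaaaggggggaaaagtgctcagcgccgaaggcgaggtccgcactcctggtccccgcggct
Col6a2: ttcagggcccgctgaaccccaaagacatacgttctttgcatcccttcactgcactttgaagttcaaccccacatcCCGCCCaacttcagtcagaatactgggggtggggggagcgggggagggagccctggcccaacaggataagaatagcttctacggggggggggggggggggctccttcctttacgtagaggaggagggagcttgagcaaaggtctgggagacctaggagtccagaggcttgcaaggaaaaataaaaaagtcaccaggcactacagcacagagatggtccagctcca
Col9a1: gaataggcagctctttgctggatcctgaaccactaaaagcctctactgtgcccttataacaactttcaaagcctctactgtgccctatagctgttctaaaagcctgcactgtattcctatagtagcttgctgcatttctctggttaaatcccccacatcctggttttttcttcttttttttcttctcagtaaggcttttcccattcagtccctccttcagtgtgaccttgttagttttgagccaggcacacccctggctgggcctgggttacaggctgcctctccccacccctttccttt

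ACGTG was found in 4 of the 32 member windows and in 19.6% of all 32851 windows of this length, and GCGTG in 10 of 32 and in 32.4%. GGGCGG was found in 20 of 32 member windows and in 35.7% of all. The AP-1 motif TGANTCA was found in 1 window of the 32 and in 7.8% of all, and TATAAA in 5 and in 13.6%. All were searched on both strands, and matches of ACGTG and GCGTG can overlap each other. Of the called members, Col5a1 held ACGTG and GGGCGG, Col6a2 held GGGCGG, and the Col9a1 window held neither of these letters nor GCGTG. A match describes the letters of the window alone.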

How the data were processed

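Total RNA of liver lobes was labelled with biotin and hybridised to 24 arrays by a 3' protocol, per the labels' protocols, and the values were made by the authors with RMA, per the submitters' processing notes (version not given in the sources used here). The deposited values are a linear ratio per probe set. Sham values average 1 per probe set in each age, within 2.0e-07, so the authors scaled each age to its own sham. Probe sets were named by matching their RefSeq accession to the supplied GRCm38.p6 gene table: 15228 had 1 symbol and 10952 none. A choice among probe sets was needed for 661 genes and followed accession type, then the lowest number.

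Log2 ratios of 14351 genes on 24 arrays were modelled as 8 group means with no block (limma 3.58.1, R 4.3.3), leaving 16 residual degrees of freedom beside a prior of 4.53. Errors are standard errors unless SD is written, and arrays of a group are numbered in the order of deposit. No pseudocount and no filter were used. On simulated data for adult 90 min over 14351 genes, the fit found 58% of 100 genes given a log2 shift of 0.5 and 98% of 100 given a shift of 1. It also called 8 genes given no shift. The simulated noise was independent between genes and arrays, without any deviation shared by genes of an array, so the rates may not hold for the real arrays. The number of arrays limits the precision.

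The members, gene lists and naming rule were chosen with earlier results of these data known. Members named per comparison are those called, up to 6 others with the largest change whose groups do not overlap, and a standing set of main collagens and lysyl oxidases. Not every value picked by this rule is printed. Those left out include the young values of Col4a1, Col4a2, Col5a2 and Loxl3. Col10a1 in adults and Col9a2 in young livers at 60 min, both uncalled, are also left out. In age and time comparisons up to 4 uncalled members are named, and Col5a3, Col7a1, Col9a3 and the called genes of the other lists were chosen after their values were seen. Alternatives were median or quantile scaling of arrays, probe sets tested separately or averaged per gene, a block for the title code's first part, arrays of 1 age, a robust prior, log2(ratio + 0.1) and each array of the groups compared left out. Each array of the other groups left out was added after seeing the data. Arrays sharing the first code part were checked for shared deviations: 12 of 29 pairs had a correlation above 0.1 (range -0.38 to 0.42). Pairs with different codes were not examined, so the check cannot tell whether the code pairs arrays. The main fit took no pairing into account. No first code part is shared by young and adult arrays, so it and age cannot be told apart. The second code part nearly follows the ischemia time, so it and the group cannot be told apart.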

Additional observations from a re-analysis of the deposited data

How the results depend on the processing

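Medians of the 40 members in adults stayed above 0 under every alternative run, at 0.08 to 0.14 at 30 min, 0.10 to 0.19 at 60 min and 0.14 to 0.21 at 90 min, with 31 to 35, 27 to 34 and 32 to 37 members above 0. The counts of called members did not hold. In adults at 60 min, 2 members were called, 0 after quantile normalization (0 of all genes), 1 with adult arrays alone, and 0 to 3 with each of the 6 arrays compared left out: 0 without the first or the third sham or the second or the third 60 min array, 1 without the second sham array and 3 without the first 60 min array. In adults at 90 min the 2 called became 0 after quantile normalization, 0 with adult arrays alone, 4 with the replicate block on the first title code part (Col10a1 at 0.41 and Col5a3 at 0.44 added, limma adjusted p = 0.0466 and 0.0342), and 0 to 1 with each of the 6 arrays compared left out: 0 without the third sham or the first or the second 90 min array and 1 without the others. In adults at 30 min 0 became 1 without the third 30 min array, so leaving out arrays gave 0 to 1. Leaving out the 18 arrays outside a comparison, 1 at a time, was added after seeing the data and moves the shared spread only. It gave 1 to 3 called in adults at 60 min and 1 to 4 at 90 min, where 11 of the 18 gave 1 and the third adult 30 min array gave 4 (Col9a1, Col6a1, Loxl1 and Col6a2), so arrays of either kind gave 0 to 3 and 0 to 4. In young livers at 90 min it gave 0 to 1, with Col14a1 called without the third adult 30 min array. All-gene counts moved likewise, from 1712 to 4 without the third adult sham array at 60 min and from 1069 to 7 at 90 min. Under the block 2 uncalled values changed sign, Col11a2 in young livers at 30 min (-0.017) and Loxl4 in young livers at 60 against 30 min (0.028). The cause of these changes was not tested. Signal over background is not kept in the ratios, so dim members could not be set apart.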
